A study of Rattus norvegicus with 4 samples.

Results

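The enzymes described here make and use glutathione and thioredoxin, the main thiol reductants of the cell, or remove superoxide and peroxide. They were taken from the gene table by symbol: glutathione S-transferases (Gst and Mgst), glutathione peroxidases (Gpx), peroxiredoxins (Prdx) and sulfiredoxin, thioredoxins and glutaredoxins with their reductases, superoxide dismutases (Sod) and catalase, the quinone reductases Nqo1 and Nqo2, heme oxygenases, the enzymes of glutathione synthesis and turnover, and the regulators Nfe2l2, Keap1 and Sesn3. That gave 68 genes among 17778 gene rows. Of these, 54 had a mean of at least 1 FPKM (fragments per kilobase of transcript, scaled to the mapped fragments of a library) over the 4 libraries and were tested. A further 4 lay above 0 but under that minimum, and 10 were listed at 0 in every library. Nfe2l1, which the same choice of symbols names, was not analysed here.

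All libraries came from RSC96, a rat cell line of Schwann cells (the glia around peripheral axons), grown to generation 4 and kept without serum overnight. One group of 2 libraries received 100 ng/ml recombinant rat IL-22 for 48 h. IL-22 is a cytokine that signals through STAT3. The control group of 2 libraries received the IL-22 solvent alone, which was bovine serum albumin at 0.1%. How long it stood on the cells is not given in the labels. No label says whether the 2 libraries of a group came from separate cultures, so p-values measure only the spread between libraries, which may be technical.

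Stat3 and its feedback target Socs3 rose by 0.67 and 1.65 on the log2(FPKM + 1) scale (limma), although Il22ra1, the IL-22-binding receptor chain, was listed at 0 throughout, and Il10rb, the shared chain, lay between 7.53 and 9.18 FPKM. The Schwann lineage markers Sox10, S100b and Ngfr were at or below 0.119 FPKM throughout, and 10 of 17 Schwann markers with a row stayed under 1 FPKM in every library. Of the 7 tested, Egr2, Erbb3 and Gfap reached 1 FPKM in a single group, and the 4 others (Pmp22, Ncam1, Dhh and Cadm4) rose. Egr2 and Erbb3 reached it with IL-22. Gfap went the other way, at 1.76 and 1.60 FPKM in controls and 0.496 and 0.810 FPKM with IL-22. The summed level of the list was 50.9 and 53.9 FPKM in controls and 99.5 and 106 FPKM with IL-22. Markers of macrophages and leukocytes summed to between 4.95 and 8.29 FPKM, with 11 of 14 under 1 FPKM throughout, and endothelial ones to between 2.90 and 4.90 FPKM, with 6 of 8 under 1 FPKM. Neuronal markers summed to between 12.0 and 20.8 FPKM, of which Map2 alone was 11.9 to 20.4 FPKM while the other 7 stayed under 1 FPKM. Fibroblast markers summed to 2384 and 2429 FPKM in controls and 1946 and 2010 FPKM with IL-22. Most of that sum was Vim, which many cell types express, at 1895 and 1937 FPKM in controls and 1455 and 1514 FPKM with IL-22. Of the 6 fibroblast markers tested 2 rose (Pdgfra and Thy1), 3 fell (Col1a1, Col1a2 and Vim) and 1 did not pass, and 4 of 10 stayed under 1 FPKM. The part of these marker levels in the results was not tested. In bulk RNA, fewer cells that express a gene and less RNA per cell cannot be told apart. The depth of the libraries relative to control library 1, estimated from steps between low values, was 1.28 for control library 2. It was 1.08 for both IL-22 libraries, and summed FPKM ranged from 630119 to 669549.

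Glutathione is built from glutamate, cysteine and glycine in 2 steps, by glutamate-cysteine ligase and glutathione synthetase. Peroxidases oxidize it to clear peroxides, S-transferases attach it to electrophiles, and glutathione reductase restores it with NADPH. Peroxiredoxins are the parallel peroxide scavengers and are recharged by thioredoxin, which thioredoxin reductase keeps reduced. The transcription factor NRF2, encoded by Nfe2l2 and held in check by KEAP1, drives many of these genes through antioxidant response elements. In peripheral nerve, Schwann cells meet oxidants after injury and during breakdown of myelin.

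Because NRF2 acts on DNA near its targets, the promoter windows of the members are shown first for 4 genes whose transcripts moved in different directions. RefSeq windows of the build GRCr8, which reach from 250 bases before to 50 bases after a gene's start site, were matched by symbol for 58 of the 68 members. They were searched on both strands for TGACNNNGC, the core of the antioxidant response element, printed in capitals. The letters can overlap an AP-1 site, whose letters are TGACTCA, as they do in the Gstp1 window. Gstp1 encodes the pi-class glutathione S-transferase, Gstm5 a mu-class one, Gclm the modifier subunit of glutamate-cysteine ligase and Gpx1 the cytosolic glutathione peroxidase.
Gstp1 (chr1:210769656-210769955, minus strand): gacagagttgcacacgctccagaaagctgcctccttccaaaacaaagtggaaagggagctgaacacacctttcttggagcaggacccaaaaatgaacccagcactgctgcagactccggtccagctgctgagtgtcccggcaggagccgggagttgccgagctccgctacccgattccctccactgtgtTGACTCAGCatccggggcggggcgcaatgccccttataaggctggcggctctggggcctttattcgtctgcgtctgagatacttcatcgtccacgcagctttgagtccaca
Gstm5 (chr2:198219519-198219818, plus strand): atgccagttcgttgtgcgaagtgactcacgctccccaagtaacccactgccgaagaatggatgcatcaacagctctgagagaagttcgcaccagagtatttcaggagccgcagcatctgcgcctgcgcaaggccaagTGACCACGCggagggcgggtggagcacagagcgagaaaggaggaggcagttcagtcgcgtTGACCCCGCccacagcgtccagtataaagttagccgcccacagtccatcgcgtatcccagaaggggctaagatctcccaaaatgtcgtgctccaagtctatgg
Gclm (chr2:213031885-213032184, plus strand): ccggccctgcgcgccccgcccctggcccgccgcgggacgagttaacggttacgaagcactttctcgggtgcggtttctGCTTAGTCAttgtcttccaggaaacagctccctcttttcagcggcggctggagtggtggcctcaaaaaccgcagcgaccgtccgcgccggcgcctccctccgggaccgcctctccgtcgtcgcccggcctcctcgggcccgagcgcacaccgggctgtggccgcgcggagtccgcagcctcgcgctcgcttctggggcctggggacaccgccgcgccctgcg
Gpx1 (chr8:117905212-117905511, plus strand): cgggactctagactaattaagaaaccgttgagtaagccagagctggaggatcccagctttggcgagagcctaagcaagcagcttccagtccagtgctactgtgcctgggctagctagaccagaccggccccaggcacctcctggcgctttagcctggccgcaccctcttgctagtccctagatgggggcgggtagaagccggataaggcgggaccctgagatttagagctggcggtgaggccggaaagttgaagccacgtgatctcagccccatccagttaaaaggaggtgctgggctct

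In Gstp1 the core began 61 bases before the start site, in Gstm5 2 cores began 113 and 53 bases before it, and in Gclm a core in reverse orientation began 172 bases before it. The Gpx1 window held no such letters, which says nothing of sites elsewhere. Of the 58 members with a window 17 held the core (29.3%), beside 13.1% of 27457 genes of the same table. Among tested members with a window it stood in 7 of 22 that rose with IL-22, 1 of 9 that fell and 5 of 15 that did not pass the test. The 7 were Gstm5, Gstm7, Gstp1, Nfe2l2, Prdx4, Prdx5 and Sod2, and the 1 that fell was Gclm. The letters TTCNNNGAA, a general STAT site that reads the same on both strands, were searched after the results were known. They stood in 9 of the 58 members with a window (15.5%, beside 9.39% of all genes). A gene with several windows was counted once. Of the 22 members with a window that rose 0 held them, and of the 9 that fell 2 did, Gclm and Txn2. Of the 15 tested members with a window that did not pass, 4 held them (Gsto1, Hmox2, Prdx3 and Txnrd1). These are matches of letters in short windows, not bound sites.

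**Figure D1:**
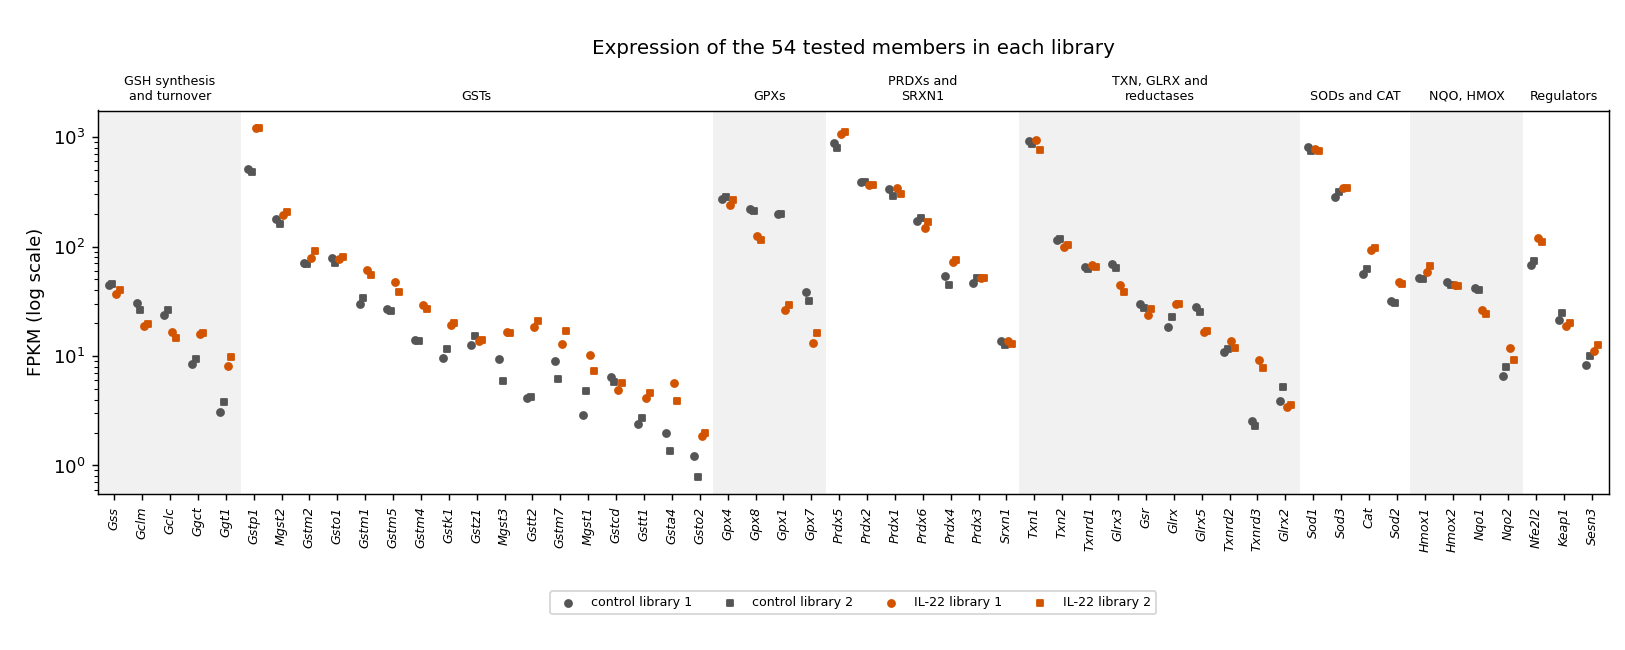
FPKM of the 54 tested members (log axis) in each of the 4 libraries, ordered by role and, within a role, by mean level. Grey symbols are control and orange symbols IL-22 libraries; members range from a mean of 1.46 to 962 FPKM, and Gpx1 and Gstt2 show the widest gaps between the groups.

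After IL-22 most S-transferases rose (14 of 17 tested) and most glutathione peroxidases fell (3 of 4), while 5 of 7 peroxiredoxin genes, thioredoxin and its main reductase did not pass the test. Of 54 tested members 27 rose and 10 fell at an adjusted p under 0.05 (limma, adjusted over all 9485 tested rows), and 17 did not pass. These are 50% and 18.5% of the members, beside 27.6% of all tested rows higher and 30.8% lower. A gap of at least 1 in mean log2(FPKM + 1), with no overlap between the groups, was found for 7 higher members (Gstt2, Txnrd3, Gstp1, Ggt1, Gsta4, Mgst3 and Mgst1) and 2 lower ones (Gpx1 and Gpx7). Those are 13% and 3.7% of the members, beside 4.68% and 2.84% of all tested rows. With a pseudocount of 5 FPKM in place of 1 only 2 higher members remained past that difference. The median difference of the members was 0.18 and that of all tested rows -0.02, while the median absolute difference was 0.53 for the members and 0.32 for all rows. All 54 tested members had a mean of at least 1 FPKM in both groups, so no member was tested through a single group. Each difference given for a gene is the IL-22 mean of log2(FPKM + 1) less the control mean, with the standard error from limma (n = 2 libraries a group), and folds are ratios of mean FPKM.

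**Figure D2:**
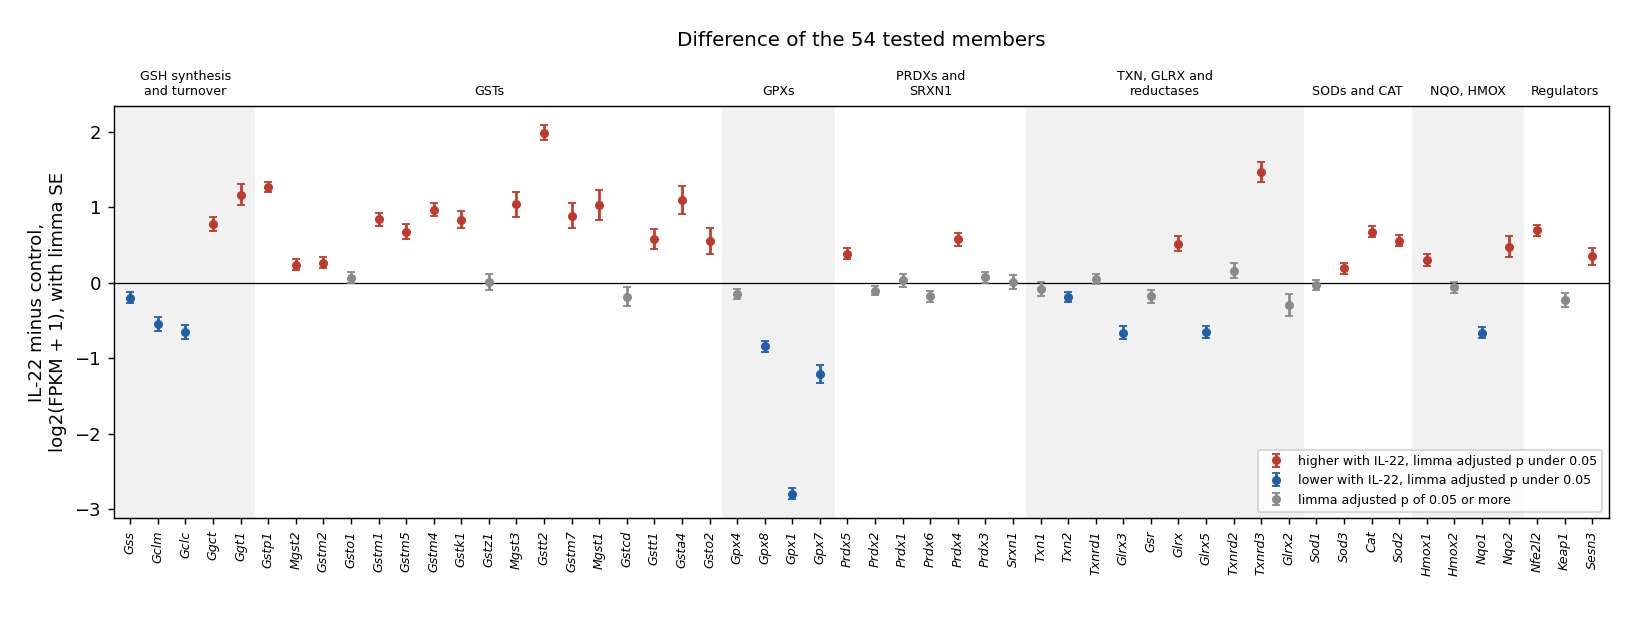
Difference between IL-22 and control on the log2(FPKM + 1) scale for each of the 54 tested members, with the limma standard error as bars, coloured by the limma call. S-transferases lie mostly above 0 (14 of 17 rose), Gpx8, Gpx1 and Gpx7 below it, and Gpx1 is the lowest at -2.80.

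Among 5 tested members of glutathione synthesis and turnover, transcripts of the 3 biosynthetic genes fell and those of both turnover genes rose. Over all tested rows 27.6% rose and 30.8% fell. Gclc, the catalytic subunit of glutamate-cysteine ligase and the rate-limiting step, read 23.7 and 26.2 FPKM in control libraries 1 and 2 and 16.4 and 14.6 FPKM in IL-22 libraries 1 and 2. Its modifier subunit Gclm read 30.7 and 26.2 FPKM in controls and 18.7 and 19.5 FPKM with IL-22. Every IL-22 library lay below every control library for both subunits. Gclc fell by 0.65 ± 0.09 on the log2 scale (adjusted p = 0.000346) and Gclm fell by 0.55 ± 0.09 (adjusted p = 0.000954). Gss, glutathione synthetase, read 44.1 and 45.0 FPKM in controls and 37.2 and 40.1 FPKM with IL-22, a smaller difference (-0.20 ± 0.07, adjusted p = 0.0408). The Gss call was lost under 8 of 14 alternatives, among them leaving out any 1 library. The limma adjusted p was 0.0834 without control library 1, 0.114 without control library 2, 0.294 without IL-22 library 1 and 0.0685 without IL-22 library 2.

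On the turnover side, Ggt1, the cell-surface gamma-glutamyltransferase that starts the recovery of extracellular glutathione, read 3.05 and 3.82 FPKM in controls and 8.06 and 9.87 FPKM with IL-22. It rose 2.61-fold (1.17 ± 0.14, adjusted p = 0.000119). Ggct, gamma-glutamylcyclotransferase, which cleaves gamma-glutamyl peptides inside the cell, read 8.54 and 9.40 FPKM in controls and 16.0 and 16.3 FPKM with IL-22 (0.78 ± 0.09, adjusted p = 0.000122). For both genes the lowest IL-22 library stood well above the highest control. Ggt5, a relative of Ggt1, stayed under 1 FPKM in every library and was not tested.

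The S-transferases, which conjugate glutathione to electrophiles, mostly rose. Of 26 members with a row 17 were tested, 14 rose and 3 did not pass, with a median difference of 0.84. Of all tested rows 27.6% rose. Summed over the 26, their level went from 973 and 917 FPKM in controls to 1807 and 1807 FPKM with IL-22. Most of that gain was Gstp1, the most abundant member, at 514 and 484 FPKM in controls and 1211 and 1198 FPKM with IL-22 (1.27 ± 0.06, adjusted p = 8.21e-07). Gstp1 made up 52.8% of the summed S-transferase FPKM in either control and 67.0% and 66.3% with IL-22. The second most abundant, the microsomal Mgst2, read 180.1 and 159.8 FPKM in controls and 194 and 207 FPKM with IL-22, a difference of 0.24 ± 0.07 (adjusted p = 0.021). That call was lost without control library 2 (limma adjusted p = 0.109) or IL-22 library 2 (0.148), without the filter and without the trend.

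The theta-class Gstt2 had the largest rise of all members, 4.70-fold. It read 4.18 and 4.21 FPKM in controls and 18.4 and 21.0 FPKM with IL-22 (1.99 ± 0.10, adjusted p = 1.07e-06), and ranked 64 from the top of the 9485 tested rows. Its relative Gstt1 rose from 2.38 and 2.72 FPKM to 4.12 and 4.56 FPKM (0.59 ± 0.13, adjusted p = 0.00455). Gsta4, an alpha-class enzyme that conjugates the lipid peroxidation product 4-hydroxynonenal, was low, at 1.96 and 1.36 FPKM in controls and 5.67 and 3.84 FPKM with IL-22 (1.10 ± 0.19, adjusted p = 0.000932). The 2 IL-22 values of Gsta4 differed from each other by more than the 2 controls did, and still lay above both.

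Mu-class members rose together. Gstm1 read 29.9 and 34.0 FPKM in controls and 61.2 and 54.9 FPKM with IL-22 (0.84 ± 0.09), Gstm4 13.9 and 13.7 against 29.4 and 26.7 FPKM (0.97 ± 0.09), and Gstm5 26.8 and 25.9 against 47.4 and 38.5 FPKM (0.68 ± 0.10). Gstm7 was lower and more scattered, at 9.03 and 6.20 FPKM in controls and 13.0 and 16.8 FPKM with IL-22 (0.89 ± 0.17). Their limma adjusted p were 5.55e-05 for Gstm1, 2.05e-05 for Gstm4, 0.000407 for Gstm5 and 0.00166 for Gstm7. The mu-class genes are similar in sequence, so reads may have been split between them, and Gstm5 has 2 rows with the same values. Gstm2, the most abundant of the class, read 70.3 and 69.5 FPKM in controls and 79.0 and 90.3 FPKM with IL-22 (0.27 ± 0.08, adjusted p = 0.0148). The Gstm2 call was lost without control library 1 (limma adjusted p = 0.078), control library 2 (0.0886) or IL-22 library 2 (0.191), and without the filter.

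Among the other S-transferases, the microsomal Mgst3 rose from 9.30 and 5.89 FPKM to 16.5 and 16.2 FPKM (1.04 ± 0.16, adjusted p = 0.000617). Mgst1, which sits in the membranes of mitochondria and the endoplasmic reticulum, rose from 2.88 and 4.75 FPKM to 10.2 and 7.37 FPKM (1.03 ± 0.20, adjusted p = 0.00188). Gstk1, the kappa-class enzyme of mitochondria and peroxisomes, rose from 9.54 and 11.7 FPKM to 19.2 and 20.2 FPKM (0.84 ± 0.11, adjusted p = 0.000173). In all 3 the groups stood apart, although the control values of Mgst3 and Mgst1 were each widely spread. Gsto2, an omega-class dehydroascorbate reductase, lay near the expression minimum, at 1.22 and 0.792 FPKM in controls and 1.88 and 1.97 FPKM with IL-22 (0.55 ± 0.17, adjusted p = 0.0211). Its call was lost without control library 2 (limma adjusted p = 0.0818), IL-22 library 1 (0.0554) or IL-22 library 2 (0.0791), and with quantile normalization (0.206). The 3 tested members that did not pass were Gsto1, Gstz1 and Gstcd, with differences from -0.18 to 0.07. Gsta1 and Gstm3 lay under 1 FPKM, and Gsta2, Gsta3, Gsta5, Gstm6, Gstm6l, Gstt3 and Gstt4 were listed at 0 throughout.

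**Figure D3:**
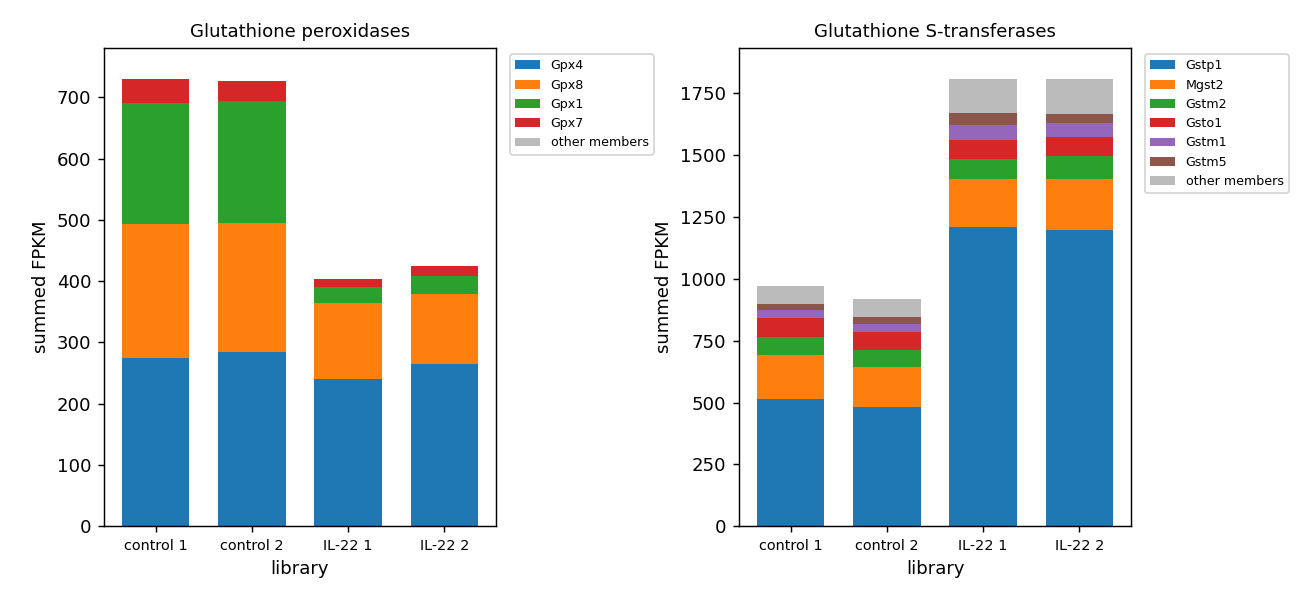
Summed FPKM of the glutathione peroxidases and of the S-transferases in each library, stacked by gene (grey: all remaining members). The Gpx1 block shrinks from 197 and 199.8 FPKM in controls to 26.3 and 29.1 FPKM with IL-22, and the Gstp1 block grows from 514 and 484 to 1211 and 1198 FPKM.

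Of 4 tested glutathione peroxidases 3 fell (beside 30.8% of all tested rows), led by Gpx1. This selenocysteine enzyme, which reduces hydrogen peroxide in the cytosol and mitochondria, read 197 and 199.8 FPKM in controls and 26.3 and 29.1 FPKM with IL-22. It was 7.16-fold lower (-2.80 ± 0.07, adjusted p = 2.74e-08), and its difference ranked 6 from the bottom of the 9485 tested rows. The libraries of each group differed by less than 3 FPKM, so the gap between the groups was far wider than the spread within them. In the RefSeq table Gpx1 overlaps no other gene.

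Gpx7 and Gpx8, which use cysteine in place of selenocysteine and work in the endoplasmic reticulum, also fell. Gpx7 read 38.7 and 32.1 FPKM in controls and 13.1 and 16.4 FPKM with IL-22 (-1.21 ± 0.12, adjusted p = 4.42e-05). Gpx8 read 219 and 211 FPKM in controls and 124 and 114 FPKM with IL-22 (-0.84 ± 0.07, adjusted p = 1.17e-05). Both IL-22 values lay below both control values in either gene. In the RefSeq table Gpx7 overlaps the protein-coding Tut4, which has no row under that symbol, and shared reads were not tested. Gpx4, the selenocysteine enzyme that reduces lipid hydroperoxides in membranes and restrains ferroptosis, read 274 and 284 FPKM in controls and 239.9 and 264 FPKM with IL-22, which did not pass (-0.15 ± 0.07, adjusted p = 0.0882). The Gpx4 groups did not overlap, and quantile normalization brought the difference past the threshold (limma adjusted p = 0.0464).

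The summed level of the family went from 729.6 and 726 FPKM in controls to 404 and 424 FPKM with IL-22. Gpx1 made up 27.0% and 27.5% of that sum in controls and 6.50% and 6.87% with IL-22, while Gpx4 made up 37.6% and 39.1% in controls and 59.4% and 62.3% with IL-22. Gpx3, Gpx5 and Gpx6 were listed at 0 throughout, and Gpx2 was listed at 0 in 3 libraries and at 0.112 FPKM in IL-22 library 2.

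Of 7 peroxiredoxin genes, sulfiredoxin included, 2 rose and 5 did not pass. The count that rose lies near the share over all tested rows, of which 27.6% rose. Prdx5, an atypical peroxiredoxin of mitochondria, peroxisomes and cytosol and the most abundant of the family, read 882 and 788 FPKM in controls and 1065 and 1114 FPKM with IL-22 (0.38 ± 0.07, adjusted p = 0.00176). Prdx4, the peroxiredoxin of the endoplasmic reticulum, read 53.2 and 44.8 FPKM in controls and 71.8 and 75.1 FPKM with IL-22 (0.58 ± 0.09, adjusted p = 0.000503). In both the lower IL-22 library exceeded the higher control. Prdx2, a cytosolic typical peroxiredoxin, read 389 and 392 FPKM in controls and 363 and 363 FPKM with IL-22 (-0.11 ± 0.06, adjusted p = 0.152), and passed with quantile normalization (limma adjusted p = 0.0291). Prdx1, Prdx3, Prdx6 and Srxn1, the enzyme that repairs over-oxidized peroxiredoxin, had differences from -0.18 to 0.08 and did not pass.

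Of 10 thioredoxins, glutaredoxins and reductases 2 rose, 3 fell and 5 did not pass. These counts lie near the shares over all tested rows, of which 27.6% rose and 30.8% fell. Txn1, cytosolic thioredoxin, read 927 and 865 FPKM in controls and 940.6 and 765 FPKM with IL-22, so the groups overlapped (-0.08 ± 0.10, adjusted p = 0.503). Its reductase Txnrd1, an NRF2 target in many cells, had a difference of 0.05 ± 0.07 (adjusted p = 0.509), and the mitochondrial Txnrd2 one of 0.16 ± 0.10 (adjusted p = 0.196). Txnrd3, a reductase with an added glutaredoxin domain known mainly from testis, differed from both. It read 2.54 and 2.27 FPKM in controls and 9.20 and 7.72 FPKM with IL-22, a 3.52-fold rise (1.47 ± 0.13, adjusted p = 2.08e-05) that left it below the level of Txnrd1, at 67.2 and 65.2 FPKM in the same libraries. Txn2, mitochondrial thioredoxin, read 114 and 117 FPKM in controls and 98.8 and 104 FPKM with IL-22 (-0.19 ± 0.06, adjusted p = 0.0317). The Txn2 call was lost under 7 of 14 alternatives, 4 of them with 1 library left out. The limma adjusted p was 0.0523 without control library 1, 0.0814 without control library 2, 0.245 without IL-22 library 1 and 0.0944 without IL-22 library 2.

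Glutaredoxins reduce mixed disulfides with glutathione, and 2 of them instead serve iron-sulfur proteins. The dithiol enzyme Glrx rose from 18.6 and 22.6 FPKM to 30.0 and 29.7 FPKM (0.52 ± 0.10, adjusted p = 0.00176). Glrx3, a cytosolic iron-sulfur carrier, read 69.0 and 63.8 FPKM in controls and 44.8 and 38.5 FPKM with IL-22 (-0.66 ± 0.09, adjusted p = 0.000214). Glrx5, the mitochondrial iron-sulfur carrier, read 28.1 and 25.4 FPKM in controls and 16.6 and 16.7 FPKM with IL-22 (-0.65 ± 0.08, adjusted p = 0.000195). Both iron-sulfur carriers thus fell, while Glrx rose. Glrx2 (-0.29 ± 0.15, adjusted p = 0.114) and Gsr, glutathione reductase (-0.18 ± 0.09, adjusted p = 0.102), did not pass.

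Of the 4 superoxide dismutase and catalase genes 3 rose, beside 27.6% of all tested rows. Catalase (Cat), which splits hydrogen peroxide in peroxisomes, read 56.5 and 61.9 FPKM in controls and 93.8 and 97.1 FPKM with IL-22 (0.68 ± 0.07, adjusted p = 5.43e-05). Sod2, the manganese dismutase of mitochondria and a known NF-kappaB target, read 32.1 and 30.3 FPKM in controls and 47.8 and 45.0 FPKM with IL-22 (0.56 ± 0.07, adjusted p = 0.000237). Both rose with no overlap between the groups. Sod1, the copper-zinc enzyme of the cytosol, was the most abundant, at 805 and 752 FPKM in controls and 779 and 747 FPKM with IL-22, and did not pass (-0.03 ± 0.07, adjusted p = 0.729). The secreted Sod3 read 282 and 316 FPKM in controls and 339.7 and 344 FPKM with IL-22 (0.19 ± 0.07, adjusted p = 0.0399). That call was lost under 6 of 14 alternatives, among them leaving out control library 1 (limma adjusted p = 0.134), IL-22 library 1 (0.127) or IL-22 library 2 (0.171).

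The Nfe2l2 transcript rose, while transcripts of textbook NRF2 targets moved in both directions. NRF2 protein was not measured. Nfe2l2 read 67.2 and 74.4 FPKM in controls and 121 and 109.9 FPKM with IL-22 (0.69 ± 0.08, adjusted p = 8.15e-05). Keap1, the adaptor that sends NRF2 to degradation, read 21.2 and 24.5 FPKM in controls and 18.7 and 20.1 FPKM with IL-22 and did not pass (-0.22 ± 0.09, adjusted p = 0.0657). The Keap1 difference passed without control library 1 (limma adjusted p = 0.0376). Nqo1, the quinone reductase most often read as NRF2 output, fell from 41.7 and 39.7 FPKM to 26.4 and 24.4 FPKM (-0.66 ± 0.08, adjusted p = 0.000111). Nfe2l2 and Nqo1 thus changed in opposite directions, each with no overlap between the groups, and Gclc and Gclm fell alongside Nqo1. Hmox1, the inducible heme oxygenase, read 51.5 and 50.01 FPKM in controls and 58.7 and 67.0 FPKM with IL-22 (0.30 ± 0.08, adjusted p = 0.00997), a call lost without control library 1 (limma adjusted p = 0.0563), control library 2 (0.0769) or IL-22 library 2 (0.129). The constitutive Hmox2 read 47.0 and 44.6 FPKM in controls and 44.2 and 43.5 FPKM with IL-22 and did not pass (adjusted p = 0.483). Nqo2 (0.48 ± 0.14, adjusted p = 0.0146) lost its call without control library 1 (limma adjusted p = 0.151) or IL-22 library 1 (0.0968). Sesn3, a sestrin that helps keep peroxiredoxins reduced (0.35 ± 0.12, adjusted p = 0.0268), lost its call without control library 1 (limma adjusted p = 0.168) or IL-22 library 2 (0.148). Both also lost it without the filter.

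Members that carry selenocysteine, grouped after the values were known, moved both ways. Of 5 tested selenocysteine enzymes Txnrd3 rose, Gpx1 fell and 3 did not pass, over a range from -2.80 to 1.47. Over all tested rows 27.6% rose and 30.8% fell.

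Neighbouring genes of the pathway, from lists that leave the members out, were read from the same fit and described by counts. Each count stands beside the shares over all tested rows, of which 27.6% rose and 30.8% fell. Of 22 tested genes of glutathione supply and breakdown 11 rose and 3 fell, with a median of 0.30, and 10 of 21 rose without Slc7a11. Slc7a11, the cystine carrier that feeds glutathione synthesis, also stands in the list of NRF2 targets. In both lists it was the only gene tested through the IL-22 group alone, and it read 0.183 and 0.175 FPKM in controls and 3.44 and 2.53 FPKM with IL-22 (1.75 ± 0.18, adjusted p = 5.06e-05). Chac1, which degrades cytosolic glutathione, rose by 3.83 ± 0.08 (adjusted p = 3.55e-09), and the neutral amino-acid carrier Slc1a4 rose by 1.79. Mat2a, which makes S-adenosylmethionine upstream of cysteine, read 63.5 and 53.3 FPKM in controls and 26.7 and 24.9 FPKM with IL-22 (-1.14 ± 0.09), and Ahcy of the same route fell by 0.73.

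Of 16 tested genes in a list drawn up for NADPH supply 8 rose and 4 fell (median 0.24). Whether the product of each makes NADPH itself was not tested. The folate enzymes Mthfd2 (1.41) and Aldh1l1 (1.23) had the largest rises, and Mthfd1 (-1.08) and the mitochondrial transhydrogenase Nnt (-0.31) the largest falls. Of 27 other NRF2 targets and partners 11 rose and 5 fell (median 0.18), and 10 of 26 rose without Slc7a11. Beside Slc7a11 the small MAF protein Maff rose by 1.04, while the detoxifying enzymes Aldh3a1 (-0.93) and Ugt1a6 (-0.78) fell. Bach1, a repressor that competes for antioxidant response elements and is named after its values were seen, read 34.1 and 34.3 FPKM in controls and 51.6 and 54.8 FPKM with IL-22 (0.62 ± 0.07, adjusted p = 9.3e-05).

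Other proteins with a thioredoxin fold or a role in thiol repair gave 11 higher and 5 lower of 27 (median 0.09). Ero1l, the oxidase that charges protein disulfide isomerase and releases hydrogen peroxide, rose by 2.26, and the stress-induced sestrin Sesn2 by 1.47. Txndc15 (-0.76) and Txndc17 (-0.52) had the largest falls. Selenoproteins outside the group and the machinery that makes them gave 2 higher and 6 lower of 16 (median -0.08). All tested rows gave 27.6% higher and 30.8% lower. Sepw1, a small muscle and brain selenoprotein, read 60.6 and 51.5 FPKM in controls and 27.9 and 29.3 FPKM with IL-22 (-0.94 ± 0.09, adjusted p = 3.14e-05), and Sephs1, a selenophosphate synthetase homologue, fell by 0.72. Selm (0.70) and Selk (0.51), both of the endoplasmic reticulum, rose. Both directions stood in this list, as they did among the members that carry selenocysteine.

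**Figure D4:**
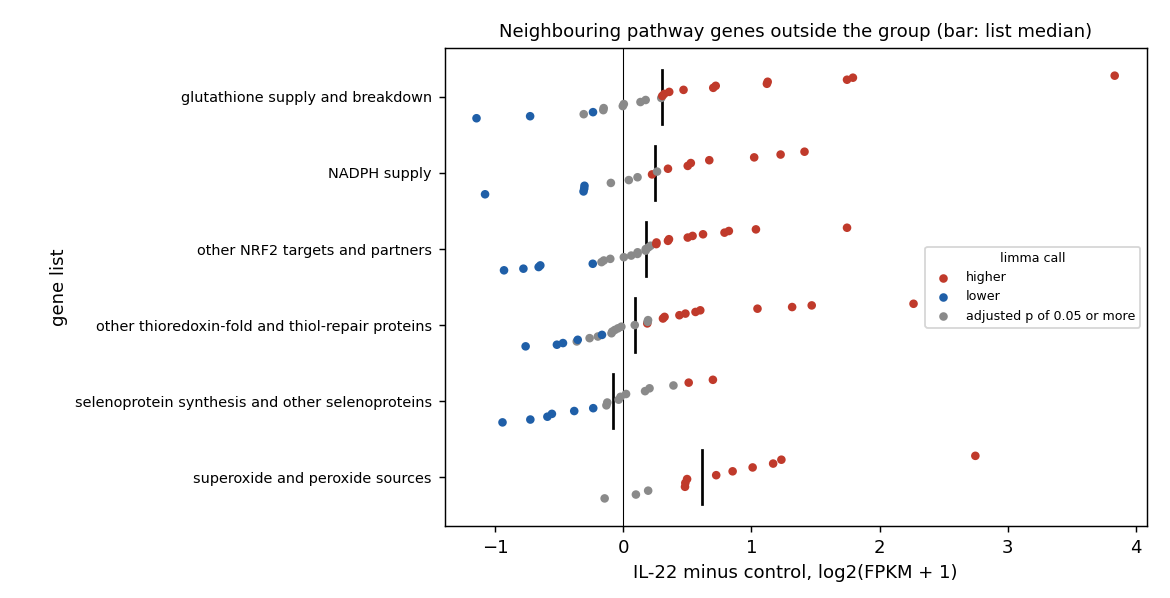
Difference between IL-22 and control on the log2(FPKM + 1) scale for each tested gene of 6 neighbouring lists, coloured by the limma call, with the list median as a bar. Medians run from -0.08 for selenoprotein genes to 0.61 for the list of superoxide and peroxide sources. The latter is 0.48 without Nos2, Duox1 and Duox2, tested through the IL-22 group alone. That list also holds genes that handle copper, P4ha1 and Sqrdl. Chac1 stands apart at 3.83.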

How the data were processed

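RNA of 4 RSC96 libraries (2 control, 2 IL-22) was, per the labels' protocols, measured after poly(A) selection. As deposited by the authors, values are FPKM, 1 column for each library. Per the submitters' processing notes the build was rn5 and the tools were TopHat2 and Cuffdiff. Their versions, the annotation, the use of strand and the scaling between libraries were not given in the sources used here, so overlapping genes cannot be told apart and near-identical copies may share reads. In the RefSeq table of GRCr8, 22 of the 54 tested members overlap another gene. For Gss, Ggt1, Gstz1, Gstcd, Prdx5, Txnrd1 and Txnrd2 that gene has a row of its own. Gpx7, Glrx2 and Nqo2 overlap protein-coding genes without a row under their symbols (Tut4, Ro60 and Serpinb6a). The second deposited table, of lncRNAs, was not used here.

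Since FPKM are no counts, log2(FPKM + 1) was tested for rows whose mean over the 4 libraries reached 1 FPKM, two-sided in R 4.3.3 by limma 3.58.1 (trended eBayes, no covariates, Benjamini-Hochberg over 9485 rows, threshold 0.05). The scale understates the change of low genes. An exact permutation test of 2 libraries against 2 can give no p under 0.333, even where the groups do not overlap. A lack of overlap therefore adds little to a call. Limma instead shares the spread across rows. Absolute depth is unknown. Relative depth is the commonest ratio of steps in rows under 0.15 FPKM. That ratio was held by 151 of 371 such rows for control library 2. For IL-22 libraries 1 and 2 it was held by 124 of 291 and 61 of 277. Any scaling between libraries, which was not given, would also enter it. A value of exactly 0 may be a failed estimate. Where rows share a symbol, the highest mean stands for it.

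Members and lists were chosen with earlier results of these data known. Values per library are given for members past the threshold by at least 0.5 log2 and for the 2 most abundant of each role, and up to 2 genes per direction are named from each list (Slc7a11 from that of NRF2 targets). Members beyond these were named to complete a count, or because their call changed. Alternatives were pseudocounts of 0.1 and 5, no filter or one at 5 FPKM, quantile normalization, median-of-ratios size factors, no trend, robust eBayes, a replicate block, summed rows of a symbol, and leaving out each library, with the lone library taken to vary as the 2 of the other group. Versions were Python 3.11.15 with pandas 2.3.3, numpy 2.4.6 and matplotlib 3.10.9.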

Additional observations from a re-analysis of the deposited data

How the results depend on the processing

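Of 37 members called, 28 kept their call and direction under all 14 alternatives (13 where a filter at 5 FPKM removed the gene) and 9 lost it under at least 1, each named with its result. A further 5 passed under at least 1 alternative, namely Gpx4, Prdx2, Prdx6, Glrx2 and Keap1, and 0 called members changed sign. Over the alternatives, leaving out 1 library included, between 21 and 27 members rose and between 8 and 12 fell. The members separated by at least 1 log2 and higher numbered 2 with a pseudocount of 5, and from 5 to 8 with 1 library left out. The median difference of the members moved to 0.16 with a pseudocount of 5, to 0.12 with a filter at 5 FPKM and to 0.20 with median-of-ratios size factors, and lay from 0.14 to 0.18 with 1 library left out. With a filter at 5 FPKM, which tests fewer genes, the NRF2 list had 3 lower and the oxidant-source list 4 higher. With 1 library left out, from 2 to 5 genes of glutathione supply and breakdown and from 3 to 6 of the thioredoxin-fold list were lower, with 5 in the first without control library 2 and 3 in the second without control library 1, and the cause was not tested. The labels give both groups the same replicate numbers, but deviations of same-numbered libraries from their group means were uncorrelated across genes (Pearson r = -0.002), so the numbers are not taken as pairs. With the replicate block 27 members rose and 12 fell. Absolute depth is unknown, which leaves the precision of rows near 1 FPKM, such as Gsto2 and Gsta4, to the spread of 2 libraries.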

Other observations

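Genes whose products make superoxide, peroxide or nitric oxide, or handle copper for superoxide dismutase, were read from a list of their own, which leaves the members out. The list also holds P4ha1, a subunit of collagen prolyl hydroxylase, and Sqrdl, which oxidizes sulfide in mitochondria, and both rose (0.73 and 1.17). Of 26 genes 12 were tested, of which 9 rose and 3 did not pass (limma), with a median of 0.61. Of the 12, 3 were tested through the IL-22 group alone: Nos2, Duox1 and Duox2. Without these 3, 6 of 9 rose and the median was 0.48. Over all tested rows 27.6% rose and 30.8% fell. Nos2, the inducible nitric oxide synthase, read 5.69 and 5.91 FPKM with IL-22, against 0.0252 FPKM in control library 2 and a listed 0 in control library 1 (2.75 ± 0.15, adjusted p = 1.45e-06). Duox1, a dual oxidase that releases hydrogen peroxide at the plasma membrane, read 0.839 and 0.749 FPKM in controls and 2.91 and 3.55 FPKM with IL-22 (1.23 ± 0.16, adjusted p = 0.000178). Of the other NADPH oxidase and oxidase subunit genes in the list 10 lay under the filter, and 9 of them did not exceed 0.430 FPKM in any library. The exception, the organizer subunit Noxo1, read 0.343 and 0.107 FPKM in controls and 1.65 and 1.01 FPKM with IL-22, and these genes were grouped after their values were seen.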
